A study of Mus musculus with 55 samples.

Results

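Voltage-gated sodium and calcium channel genes were followed in mouse neurons as the neurons matured in culture and as they were stimulated. Members were all genes whose symbol begins with Cacna, Cacnb or Cacng, or is that of a numbered Scn gene for a sodium channel alpha or beta subunit, which gave 40 genes. Of these, 38 had a transcript in the count tables of both experiments, against 28492 genes matched in the maturation table and 28216 in the stimuli table.

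Voltage-gated sodium channels open within a fraction of a millisecond of depolarization and carry the rising phase of the action potential. Their large alpha subunit forms the pore, and small beta subunits change its gating and act as adhesion molecules. Voltage-gated calcium channels turn depolarization into calcium entry, which triggers transmitter release and signals to the nucleus. Their alpha1 subunit forms the pore, and the alpha2delta and cytoplasmic beta subunits bring it to the membrane. Most neuronal gamma genes encode auxiliary subunits of AMPA-type glutamate receptors, although they were named after a calcium channel subunit of skeletal muscle.

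Neurons came from cortex and hippocampus of CD1 mouse embryos of both sexes, with no transgene or deletion named in the labels, and were grown in 24-well plates. The maturation experiment had 28 samples at 7 days in vitro (7DIV) or at a later stage that the study groups as 21DIV and the sample labels give as 23DIV. They were basal, or stimulated for 15 or 180 min with 55 mM KCl, which depolarizes the membrane, or with 50 µM bicuculline (Bic), a blocker of GABA-A receptors, combined with 4-aminopyridine at 2.5 mM, which blocks potassium channels. The stimuli experiment had 27 samples at 21DIV, which were basal, stimulated for 15, 45 or 180 min with 55 mM KCl or with 50 µM Bic alone, silenced for 48 h with 1 µM tetrodotoxin (TTX), a blocker of sodium channels, or sampled 15, 45 or 180 min after that TTX was washed out (TTXw). KCl and Bic were given without prior silencing. Groups of the maturation experiment had 3 samples, but for Bic with 4-aminopyridine at 21DIV, where each time had 2. In the stimuli experiment, basal had 3 samples, TTX 4, each KCl and Bic time 2, and TTXw 3 at 15 min, 2 at 45 min and 3 at 180 min. The samples are numbered replicates, and nothing states that they came from separate litters, so p-values measure only the spread between these samples.

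Counts on genes ranged from 1659722 to 14012872 per library in the former experiment and from 1177500 to 3909487 in the latter. Values below are CPM, counts relative to the total of their library, normalized by the trimmed mean of M-values (TMM) within each experiment, and levels of the 2 experiments were not set on a common scale. A gene was called when edgeR's quasi-likelihood test over all times of a stimulus gave a Benjamini-Hochberg adjusted p under 0.05 and at least 1 time differed by 1.5-fold or more. Log2 fold changes are followed by their standard errors. The summed level of 6 neuronal markers was between 3724 and 4764 CPM in the 6 basal libraries of the maturation experiment, but glia were present too. Astrocyte markers, 7 genes, summed to between 204 and 326 CPM at 7DIV and between 1340.2 and 1526 CPM at 21DIV. Oligodendrocyte lineage markers, 9 genes, summed to between 467 and 729 CPM at 7DIV and between 2408 and 3170.4 CPM at 21DIV. Microglial markers, 5 genes, summed to between 10.4 and 17.2 CPM at 7DIV and between 4.29 and 8.47 CPM at 21DIV. In such bulk samples, fewer cells of a type and less RNA per cell cannot be told apart.

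The filter for tested genes was a CPM above 5 in at least 2 samples, which 27 members passed in the maturation experiment and 26 in the other. The 13 members not tested in either were largely channels known from other tissues. They included the skeletal muscle genes Scn4a and Cacna1s, the photoreceptor genes Cacna1f and Cacna2d4, the sensory neuron genes Scn9a, Scn10a and Scn11a, and Scn7a, Scn4b, Cacng6, Cacng7 and Cacng8. Cacng6 and Cacng8 had no transcript matched and were not analysed here. Cacng7, an AMPA receptor auxiliary gene, had 4 counts over the whole maturation experiment and 0 over the stimuli experiment. Cacng1, the skeletal muscle gamma subunit, passed only in the maturation experiment, and neither it nor Cacna1g, a T-type pore gene, passed in the fit of the basal samples alone.

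Promoter sequences are shown for 4 genes that the results turn on, as stretches before an annotated RefSeq start on build GRCm38.p6. The stretches are free of exons that the GENCODE annotation gives for the same gene, and exons of other genes were not checked. Scn2b rose most with maturation, Cacnb3 was the member called by edgeR for a difference between stages in its response to stimulation, Cacnb4 fell both with TTX and after its withdrawal, and Cacng5 rose with Bic. Each is printed in the direction of transcription, with motif matches in capitals.
Scn2b, chr9:45117626-45117781, plus strand: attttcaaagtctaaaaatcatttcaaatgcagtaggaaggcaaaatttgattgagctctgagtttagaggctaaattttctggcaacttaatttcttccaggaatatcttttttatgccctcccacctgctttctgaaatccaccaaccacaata
Cacnb3, upstream start, chr15:98632078-98632327, plus strand: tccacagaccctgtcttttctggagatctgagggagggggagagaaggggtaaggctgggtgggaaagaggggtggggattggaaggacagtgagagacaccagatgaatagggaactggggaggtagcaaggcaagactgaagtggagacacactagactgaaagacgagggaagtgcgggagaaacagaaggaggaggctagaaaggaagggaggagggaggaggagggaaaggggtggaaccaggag
Cacnb3, downstream start, chr15:98634568-98634766, plus strand: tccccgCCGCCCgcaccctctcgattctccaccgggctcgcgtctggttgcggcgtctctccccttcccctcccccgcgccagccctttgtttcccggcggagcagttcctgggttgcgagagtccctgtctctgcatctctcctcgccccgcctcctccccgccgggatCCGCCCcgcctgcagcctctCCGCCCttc
Cacnb4, chr2:52676144-52676270, minus strand: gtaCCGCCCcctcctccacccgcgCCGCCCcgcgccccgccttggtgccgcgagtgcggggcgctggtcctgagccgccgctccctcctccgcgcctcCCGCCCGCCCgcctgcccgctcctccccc
Cacng5, chr11:107915056-107915305, minus strand: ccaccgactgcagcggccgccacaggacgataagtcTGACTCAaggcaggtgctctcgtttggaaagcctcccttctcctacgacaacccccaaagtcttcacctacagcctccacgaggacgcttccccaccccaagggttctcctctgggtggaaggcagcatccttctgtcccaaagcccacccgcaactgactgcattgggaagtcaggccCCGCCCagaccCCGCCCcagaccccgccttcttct
The motifs searched on both strands over the 250 bases before each start were the cAMP response element TGACGTCA, its half-site TGACG, the AP-1 site TGANTCA and the GC box GGGCGG. A window was found for 30 of the 40 members, with 41 windows in all. The full cAMP response element was in 0 of the members' windows, against 1.55% of 32851 promoters of all genes. The half-site, which the full element contains, was in 6 of the 41 windows (14.6%), 1 each of Cacna1b, Cacna1c, Cacna1i, Cacna2d1, Cacnb2 and Scn10a, against 17.8% of all promoters. The AP-1 site was in 1 window (2.44%), of Cacng5, where it lies 214 bases before the start, against 6.75% of all promoters. The GC box was in 15 windows (36.6%), against 32.7% of all promoters, and the printed stretches hold 4 in Cacnb4, 3 in the downstream start of Cacnb3 and 2 in Cacng5. Stretches before other starts, 2 of Cacnb4 and 1 of Cacng5, hold no match to any of these motifs and are not printed. These matches describe letters only.

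The first comparison asked how basal levels differ between 21DIV and 7DIV neurons. The sodium channel beta subunit gene Scn2b and an AMPA receptor auxiliary gene rose most with maturation, while the T-type calcium channel gene Cacna1h and the early auxiliary gene Cacng4 fell. Of the 25 members tested in this fit of 6 samples, 12 were called, 10 higher and 2 lower at 21DIV. Of all 10510 genes tested, 33.1% were called, 18.2% higher and 14.9% lower. The median log2 fold change was 0.513 over the members and 0.0096 over all genes tested.

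Among sodium channel beta subunits, Scn2b (chr9:45117876-45130070) was at 0.947, 9.20 and 5.96 CPM at 7DIV and at 69.2, 59.9 and 67.7 CPM at 21DIV. The 7DIV values rest on 2, 15 and 22 counts, and every 21DIV library lay far above them. Scn2b rose 12.7-fold, a log2 fold change of 3.67 ± 0.36 (adjusted p = 3.47e-06). Scn3b, at 70.6, 73.0 and 76.9 CPM and then at 57.6, 62.6 and 61.3 CPM, differed by -0.26 ± 0.15 and was not called (adjusted p = 0.2).

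Among the pore-forming sodium channel genes, 1 of the 4 tested was called. Scn8a (chr15:100869863-101045938), the main alpha subunit of mature axon initial segments and nodes, was at 68.7, 70.5 and 72.9 CPM at 7DIV and at 142, 215 and 212 CPM at 21DIV. All 21DIV libraries were higher, and Scn8a rose 2.73-fold (log2 1.45 ± 0.17, adjusted p = 2.14e-05). Scn2a (chr2:65620764-65767447), the alpha subunit known from immature initial segments and excitatory neurons, was at 153, 111 and 134 CPM and then at 143, 231 and 184 CPM. Its stages overlapped, and its log2 fold change of 0.51 ± 0.18 (adjusted p = 0.0385) stayed below 1.5-fold. Scn2a passed the call without replicate 2 of 7DIV (log2 0.59, adjusted p = 0.0406) and without replicate 1 of 21DIV (log2 0.67, adjusted p = 0.00474), and with the replicate number as a block (log2 0.68, adjusted p = 0.00437).

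Scn3a (chr2:65457118-65567591), the alpha subunit of the embryonic and newborn brain, was at 300.3, 266 and 252 CPM at 7DIV and at 100.1, 277 and 171 CPM at 21DIV. Replicate 2 of 21DIV lay within the 7DIV range and the other libraries of 21DIV below it. Scn3a differed by -0.55 ± 0.26 (adjusted p = 0.113), and without that library by -0.99 (adjusted p = 0.00195). Scn1a, known from inhibitory interneurons, was at 11.4, 12.9 and 11.9 CPM at 7DIV and at 9.16, 19.5 and 14.1 CPM at 21DIV. The stages overlapped (log2 0.27 ± 0.31, adjusted p = 0.529). Without replicate 2 of 21DIV the value for Scn1a was -0.03 (adjusted p = 0.965).

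Among the gamma genes, Cacng3 (chr7:122671744-122769393), which encodes an AMPA receptor auxiliary subunit, was at 28.4, 23.9 and 31.96 CPM at 7DIV and at 224, 246 and 296 CPM at 21DIV. The stages were far apart, and Cacng3 rose 9.12-fold (log2 3.19 ± 0.17, adjusted p = 1.9e-08). Cacng4 (chr11:107732357-107794706), another auxiliary gene of the same family, was at 21.8, 14.7 and 11.4 CPM at 7DIV and at 2.94, 3.76 and 3.54 CPM at 21DIV. It fell with no overlap by 2.17 ± 0.37 on the log2 scale (adjusted p = 0.000391), with counts between 17 and 32 at 21DIV. Every 21DIV library lay under the 5 CPM of the filter, so Cacng4 was tested in this fit only through its higher 7DIV values. Cacng2, which encodes stargazin, rose by a log2 fold change of 0.68 ± 0.19 (adjusted p = 0.0114). Its adjusted p was 0.0533 without replicate 3 of 7DIV and 0.0797 without replicate 4 of 7DIV. Cacng2 was not called either with the replicate number as a block (log2 0.41, adjusted p = 0.0799) or with thinned counts (log2 0.51, below 1.5-fold). Cacng5 (log2 0.45 ± 0.37, adjusted p = 0.36) was not called.

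All 3 tested alpha2delta genes and all 4 beta genes of calcium channels had values, and 2 of each class were called, all higher at 21DIV. Cacna2d2 (chr9:107399733-107529346), a target of gabapentin drugs, was at 2.37, 9.20 and 4.33 CPM at 7DIV and at 11.8, 11.1 and 11.2 CPM at 21DIV. The stages did not overlap (log2 1.20 ± 0.41, adjusted p = 0.0342), but replicate 3 of 7DIV lay close to the 21DIV values. Only that 7DIV library was above the 5 CPM of the filter, so Cacna2d2 passed it through its higher 21DIV values. Cacna2d2 was not called without replicate 2 or 4 of 7DIV (adjusted p = 0.122 and 0.125) or without replicate 1, 2 or 3 of 21DIV (adjusted p = 0.0598, 0.0695 and 0.0811). The call was also lost with the replicate number as a block (adjusted p = 0.139), in a fit of all 28 samples (0.0517), with counts summed over transcripts (0.0539) and with counts thinned to the smallest library (log2 0.76, adjusted p = 0.277), so 9 of 13 alternatives ended it. Cacna2d3 rose by 1.19 ± 0.28 (adjusted p = 0.00455, and 0.0512 with counts summed over transcripts), and Cacna2d1, between 487 and 632 CPM over both stages, differed by -0.10 ± 0.12 (adjusted p = 0.541).

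Cacnb4, the beta subunit mutated in lethargic mice, rose by 1.07 ± 0.17 (adjusted p = 0.00021), from between 36.8 and 49.6 CPM to between 85.2 and 101 CPM. Cacnb2, a beta subunit also prominent in heart, rose by 1.16 ± 0.35 (adjusted p = 0.017). The adjusted p of Cacnb2 was 0.0548 without replicate 3 of 7DIV and 0.0529 without replicate 3 of 21DIV. Cacnb1 differed by 0.51 ± 0.14 (adjusted p = 0.0107), less than 1.5-fold, and Cacnb3 by 0.47 ± 0.19 (adjusted p = 0.0632).

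Of the 7 pore-forming calcium channel genes tested, 2 were called, in opposite directions. Cacna1a (chr8:84338631-84640251), the P/Q-type pore of central synapses, was at 76.3, 76.1 and 77.2 CPM at 7DIV and at 101, 120.2 and 127 CPM at 21DIV. It rose without overlap (log2 0.63 ± 0.15, adjusted p = 0.00412). Without replicate 3 of 21DIV its log2 fold change was 0.57, below 1.5-fold. Cacna1h (chr17:25374285-25436334), a low-threshold T-type pore, was at 89.1, 68.1 and 76.4 CPM at 7DIV and at 33.5, 39.2 and 37.95 CPM at 21DIV. It fell with no overlap by 1.05 ± 0.17 on the log2 scale (adjusted p = 0.000264). The other T-type gene tested, Cacna1i, had a value of 0.61 ± 0.26 (adjusted p = 0.0825). The N-type Cacna1b (-0.25), the L-type Cacna1c (0.50) and Cacna1d (-0.08) and the R-type Cacna1e (0.56) were not called either.

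**Figure D1:**
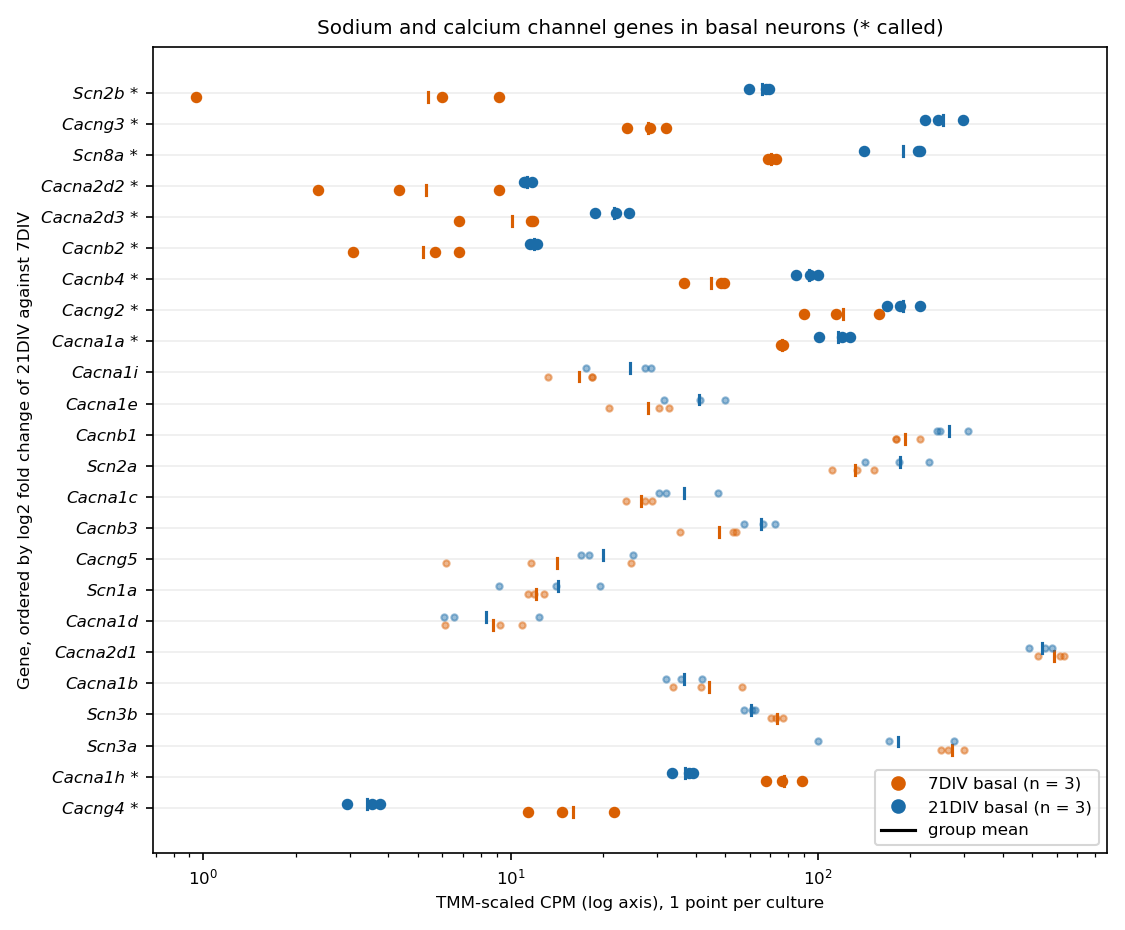
Basal level of 24 tested members in every library, in CPM on a log axis, at 7DIV and 21DIV, 3 libraries each, with an asterisk at the called genes. Scn2b and Cacng3 show the widest gaps between stages, Cacng4 and Cacna1h lie lower at 21DIV, and the points of Scn2a, Scn3a and Scn1a overlap.

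Glial markers moved with the same contrast. Of the astrocyte markers 6 of 7 tested rose, and of the oligodendrocyte lineage markers 8 of 8. The 1 microglial marker tested fell (log2 -1.70). Neuronal markers went both ways, with 3 of 6 higher and 2 lower, inhibitory neuron markers rose in 5 of 6, and of 5 excitatory neuron markers 1 rose and 4 fell. Their part in the changes of channel genes was not tested.

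Partners of the channels, from lists chosen with earlier results of these data known, were read in the same contrast. Of 11 sodium channel and axon initial segment partners, 3 rose and 0 fell (27.3%), where 33.1% of all genes were called. They were Fgf11, an intracellular partner of sodium channels (log2 0.96 ± 0.32), Nrcam, an adhesion molecule of initial segments and nodes (1.09 ± 0.14), and Sptbn4, the spectrin that anchors channels there (1.07 ± 0.24). Of 9 calcium channel regulators tested, 5 rose and 2 fell. Rimbp2, which ties calcium channels to release sites, rose by 1.69 ± 0.17 and Rims2 by 1.12 ± 0.19, with Cabp1, Calm3 and Stac2 the others higher. Stac, an adaptor that binds calcium channels, fell by 2.76 ± 0.38 and Rem2, a small GTPase that inhibits them, by 1.72 ± 0.37. Of 3 sodium leak channel genes tested, Unc80, an auxiliary subunit of the leak channel, rose by 3.48 ± 0.39.

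The next comparison asked how KCl and Bic with 4-aminopyridine act at each stage. At 7DIV, none of the 27 members tested was called with either stimulus by edgeR's quasi-likelihood test. KCl called 2.29% of the 11746 genes tested at this stage, and Bic with 4-aminopyridine 0%. For each stimulus 2 members had an unadjusted p under 0.05, as 1551 of the 11746 genes had with KCl and 846 with Bic and 4-aminopyridine. DESeq2 called 0 members with either. The smallest adjusted p of a member was 0.186 with KCl and 0.513 with Bic. Of the 5 activity genes Fos, Arc, Npas4, Egr1 and Nr4a1, KCl raised 4 at 7DIV and Bic with 4-aminopyridine 0. Without replicate 1 of KCl at 180 min, 1 member was called with KCl at 7DIV, and the share of all genes called there is not given here.

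At 21DIV, KCl lowered 3 of the 27 members and raised 0. Of all genes, 7.65% were called and 3.52% were lower. Cacnb3 (chr15:98628436-98644536), a beta subunit common in brain calcium channels, was at 57.6, 66.2 and 72.6 CPM in basal libraries. After KCl it was at 32.8, 29.3 and 32.2 CPM at 15 min and at 45.4, 35.02 and 30.0 CPM at 180 min. Both times lay wholly below basal, with log2 fold changes of -1.05 ± 0.18 and -0.83 ± 0.18 (adjusted p over both times = 0.000358).

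The other called genes were pore-forming sodium channel genes and differed from basal only at 15 min. Scn2a was at 143, 231 and 184 CPM in basal libraries, at 69.5, 139.6 and 119 CPM at 15 min and at 211, 149.8 and 176 CPM at 180 min. At 15 min it lay below basal with a small gap (log2 -0.77 ± 0.19, adjusted p over both times = 0.0133), and at 180 min it overlapped basal (-0.05 ± 0.19). Scn3a was at 100.1, 277 and 171 CPM in basal libraries, at 60.4, 91.7 and 114 CPM at 15 min and at 261, 169 and 127 CPM at 180 min. Its basal and 15 min values overlapped (log2 -1.05 ± 0.26, adjusted p = 0.0113), and its 180 min value was 0.03 ± 0.26. Both were lowest in replicate 1 of KCl at 15 min, the library with the most counts, 14012872. Without that library neither was called, at log2 -0.53 for Scn2a (adjusted p = 0.121) and -0.83 for Scn3a (adjusted p = 0.0973), and the count of called members was 1. Neither was called in a fit of the compared groups only (adjusted p = 0.113 and 0.112), and Scn2a was not called with counts summed over transcripts (0.0594). Without replicate 2 of basal the value of Scn3a was -0.63 (adjusted p = 0.0155).

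At 15 min of KCl, 21 of the 27 members had a log2 fold change below 0, with a median of -0.269, where the median over all genes was 0.0012. In the same comparison, 2 of the 6 neuronal markers fell and 0 rose, and their sum went from between 3972 and 4764 CPM in basal libraries to between 3547 and 3761 CPM at 15 min. Of 5 excitatory neuron markers 2 were lower and 1 higher, and of 8 oligodendrocyte lineage markers 1 was lower and 1 higher. The latter summed to between 2408 and 3170.4 CPM in basal libraries, between 1913 and 2147 CPM at 15 min and between 1170.5 and 1670.1 CPM at 180 min. The part of these markers in the channel values was not tested. Scn8a, at 132, 120.3 and 149 CPM after 15 min, had a value of -0.50 ± 0.17 (adjusted p over both times = 0.0905). Scn1a, at 4.36, 12.6 and 6.41 CPM after 15 min, had a value of -0.93 ± 0.39 (adjusted p = 0.161).

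Bic with 4-aminopyridine lowered 2 of the 27 members at 21DIV and raised 0, both past the threshold at 180 min. Of all genes, 12.3% were called and 5.81% were lower. The same basal libraries served as controls for KCl and for Bic. Cacnb3 was at 72.5 and 51.5 CPM at 15 min and at 32.1 and 36.6 CPM at 180 min. Both 180 min libraries lay below all basal libraries, as did 1 of the 2 at 15 min (log2 at 180 min -0.94 ± 0.20, adjusted p over both times = 0.00484). Without replicate 2 of 180 min the adjusted p of Cacnb3 was 0.145.

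Cell type markers moved in the same contrast. Of 8 oligodendrocyte lineage markers 3 were lower, and their sum went from between 2408 and 3170.4 CPM in basal libraries to between 1025 and 1659 CPM at 180 min. Of 7 astrocyte markers 2 were lower, with a sum of between 1340.2 and 1526 CPM and then between 748 and 1269 CPM. Neuronal markers were lower in 2 of 6 and higher in 1, with a sum of between 3972 and 4764 CPM and then between 3435 and 3883 CPM. Excitatory neuron markers were lower in 1 of 5 and higher in 1, and 2 of 3 microglial markers tested were higher, with a sum of at most 20.6 CPM. Their part in the values of Cacnb3 and Cacna1a was not tested.

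Cacna1a was at 101, 120.2 and 127 CPM in basal libraries, at 123 and 106 CPM at 15 min of Bic with 4-aminopyridine and at 67.8 and 78.4 CPM at 180 min. The 180 min libraries lay below basal without overlap (log2 -0.67 ± 0.18, adjusted p = 0.0187), and the 15 min libraries within it. The call for Cacna1a was lost without replicate 2 of 180 min (adjusted p = 0.293) and without replicate 3 (adjusted p = 0.0632). Cacna2d1, at 440.3 and 291 CPM at 180 min, had a value of -0.55 ± 0.16 (adjusted p = 0.0206), below 1.5-fold. Of the 4 pore-forming sodium channel genes tested, 0 were called with Bic and 4-aminopyridine by edgeR or by DESeq2, with edgeR's adjusted p between 0.0805 and 0.928. The unadjusted p was under 0.05 for 1 of them, and for 3349 of all 11746 genes.

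Of the 11 sodium channel partners, Fgf13, an intracellular partner also named FHF2, was the only one called with KCl at 21DIV. Its log2 fold change was -0.68 ± 0.14 after 15 min and -0.58 ± 0.14 after 180 min (adjusted p over both times = 0.00234). With Bic and 4-aminopyridine 4 were called. Fgf13 (-0.99 ± 0.16 at 180 min), the ankyrin gene Ank2 (-0.83 ± 0.15) and the ubiquitin ligase gene Nedd4l (-0.60 ± 0.19) were lower, and Fgf11 was higher (1.09 ± 0.29). Of 10 calcium channel regulators tested, Stac2 rose with KCl (0.82 ± 0.23 at 15 min) and with Bic (1.31 ± 0.25 at 180 min), and Rimbp2 fell with Bic (-0.89 ± 0.24).

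**Figure D2:**
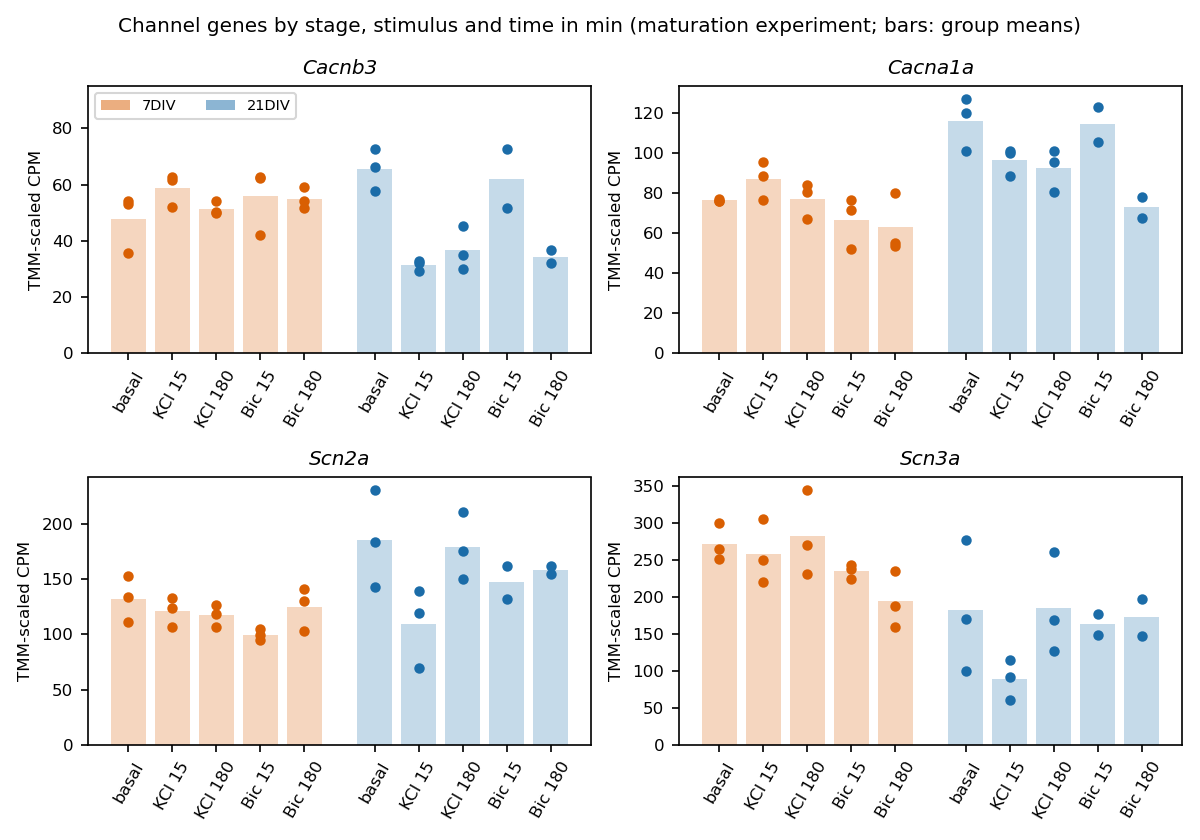
Level in CPM of Cacnb3, Cacna1a, Scn2a and Scn3a in every library of the 10 groups of the maturation experiment, with the group mean as a bar. Cacnb3 at 21DIV is lower after KCl at both times and after Bic with 4-aminopyridine at 180 min, while its 7DIV libraries show no such drop.

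The difference between stages was tested directly as an interaction. For KCl, Cacnb3 alone among the 27 members was called by edgeR, where 2.06% of all genes were. The unadjusted p was under 0.05 for 6 members and for 2055 of all 11746 genes. DESeq2 called 2 members and edgeR with no filter on low counts 5, with Cacnb3 among them each time. The share of all genes called under these 2 settings is not given here, so the counts describe the members only. At 7DIV Cacnb3 was at 53.1, 35.6 and 54.2 CPM in basal libraries, at 62.6, 51.9 and 61.6 CPM after 15 min of KCl and at 54.0, 49.8 and 50.2 CPM after 180 min. The 7DIV values overlapped basal, and the log2 fold change at 21DIV minus that at 7DIV was -1.34 ± 0.26 at 15 min (adjusted p over both times = 0.0121). For Bic with 4-aminopyridine, Cacnb3 was again the 1 member called by edgeR, where 4.17% of all genes were. Here 4 members and 2193 of all 11746 genes had an unadjusted p under 0.05. With no filter 2 were called, again without a share of all genes to set beside it. At 7DIV it was at 59.1, 51.6 and 54.3 CPM after 180 min, and the difference between stages was -1.12 ± 0.28 (adjusted p = 0.0355).

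The Bic interaction of Cacnb3 depended on single libraries. It was not called without replicate 3 of 7DIV basal (adjusted p = 0.0665), nor without replicate 1, 2 or 3 of 7DIV Bic at 180 min (0.0852, 0.0536 and 0.0678). Nor was it called without replicate 2 or 3 of 21DIV basal (adjusted p = 0.0563 and 0.0737) or replicate 2 or 3 of 21DIV Bic at 180 min (0.239 and 0.08). The call was also lost with the replicate number as a block (adjusted p = 0.065), with thinned counts (0.0696) and in a fit of the compared groups only (0.058), where 1 other member was called. The responses of Scn2a and Scn3a were not shown to differ between stages, since 0 of the 7 sodium channel genes tested passed edgeR's interaction test for either stimulus. The unadjusted p was under 0.05 for 3 of them with KCl and for 1 with Bic.

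The stimuli experiment asked how KCl, Bic alone and TTXw act on 21DIV neurons. KCl raised 1 of the 26 members tested and lowered 0, where 6.04% of 12027 genes were called and 3.89% were higher. Cacna1e (chr1:154390806-154884785), the R-type pore, was at 69.6, 75.5 and 56.1 CPM in basal libraries and at 99.5 and 129 CPM after 15 min of KCl. Later it was at 77.8 and 85.1 CPM at 45 min and at 98.5 and 72.9 CPM at 180 min. The 15 min libraries lay above basal (log2 0.77 ± 0.19, adjusted p over all times = 0.0449), and the 180 min libraries overlapped it. The call was lost without replicate 1 or 5 of basal (adjusted p = 0.0962 and 0.162) or replicate 2 of KCl at 15 min (0.377). It was also lost with the replicate number as a block (0.168), with counts summed over transcripts (0.16) and with thinned counts (0.215).

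Markers of several cell types moved with KCl. Of 7 astrocyte markers 2 were higher, and their sum went from between 1604 and 2042 CPM in basal libraries to between 2816 and 2861 CPM after 15 min of KCl. Of 6 neuronal markers 2 were higher, with a sum of between 4288 and 4479 CPM and then between 5535 and 6155 CPM. Of 8 oligodendrocyte lineage markers 3 were higher and 2 lower, with a sum of between 756 and 1201 CPM in basal libraries, between 1369.9 and 1499 CPM at 15 min and between 608 and 618 CPM at 180 min. Of 5 markers tested, 1 was higher for excitatory and 1 for inhibitory neurons. Their part in the value of Cacna1e was not tested.

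Cacnb3 and the pore-forming sodium channel genes were not called with KCl here. The largest log2 fold changes of the 4 pore-forming genes, each at its own time, ran from 0.317 to 0.701. In the maturation experiment they ran from -1.049 to -0.502, all at 15 min, while those here include later times. The ranges are therefore not matched by time, and the difference between the experiments was not tested. After 15 min Scn2a was at 242 and 324 CPM and Scn3a at 210 and 337 CPM, both overlapping basal. Scn8a, at 125 and 153 CPM after 15 min, overlapped basal too, and Scn1a, at 15.0 and 15.9 CPM, lay below it. After 180 min Scn3a was at 390 and 501 CPM, above basal libraries at 339, 326 and 276 CPM. Cacnb3 was at 12.6, 14.9 and 21.99 CPM in basal libraries and at 14.6 and 17.1 CPM after 15 min of KCl (log2 -0.03 ± 0.26). Its basal and KCl libraries overlapped at all 3 times (adjusted p = 0.968). Scn3b, at 105, 96.8 and 89.1 CPM in basal libraries and at 67.4 and 67.6 CPM after 15 min, had a value of -0.53 ± 0.14 (adjusted p over all times = 0.0428), below 1.5-fold. Cacnb2 was at 21.2, 30.9 and 26.5 CPM in basal libraries and at 14.2 and 11.8 CPM after 15 min of KCl (log2 -1.01). For Cacnb2 the adjusted p was 0.0206 at 15 min alone and 0.112 over all times, so it was not called.

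Bic alone changed 3 of the 26 members, 2 higher and 1 lower, where 6.63% of all genes were called, 4.08% higher and 2.54% lower. Cacna2d2 was at 10.3, 10.4 and 14.8 CPM in basal libraries, at 16.3 and 12.6 CPM after 15 min of Bic, at 25.8 and 23.1 CPM after 45 min and at 17.1 and 14.9 CPM after 180 min. Its 45 min libraries stood above the others (log2 1.05 ± 0.25, adjusted p over all times = 0.0351). Cacng5 (chr11:107874604-107915055), a gamma gene whose product also binds AMPA receptors, was at 26.4, 35.4 and 22.4 CPM in basal libraries, at 40.7 and 61.2 CPM after 15 min and at 53.7 and 41.3 CPM after 45 min. Cacng5 at both times lay above basal (log2 0.81 ± 0.25 and 0.75 ± 0.24, adjusted p over all times = 0.0493), and at 180 min, with 31.1 and 33.9 CPM, it overlapped basal.

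Scn3b (chr9:40269216-40291618), a sodium channel beta subunit gene, was at 75.2 and 61.2 CPM after 15 min of Bic, at 62.4 and 60.5 CPM after 45 min and at 76.9 and 79.2 CPM after 180 min. All 6 Bic libraries lay below the 3 basal ones, and at 45 min Scn3b differed by -0.66 ± 0.15 (adjusted p over all times = 0.00848). Each of the 3 calls rested on few libraries. Cacna2d2 was not called without replicate 1 or 2 of basal (adjusted p = 0.131 and 0.0949) or replicate 1 or 2 of Bic at 45 min (0.17 and 0.117). Cacng5 was not called without replicate 1 or 5 of basal (0.146 and 0.166), replicate 3 of Bic at 15 min (0.112), replicate 1 at 45 min (0.114) or replicate 2 or 3 at 180 min (0.0642 and 0.0528). Scn3b was not called without replicate 1 of basal (0.0775) or replicate 1 or 2 of Bic at 45 min (0.0561 and 0.0771). Cacna2d2 was not called either by DESeq2 (0.0585), with no filter (0.0585), with counts summed over transcripts (0.0648) or with thinned counts (0.392). Cacng5 was not called with the replicate number as a block (0.17), with summed counts (0.147) or with thinned counts (0.0672).

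Cell type markers were higher with Bic alone too. Of 7 astrocyte markers 4 rose, and their sum was between 1604 and 2042 CPM in basal libraries and between 3002 and 3484 CPM at 45 min, when Cacna2d2 was highest. Oligodendrocyte lineage markers rose in 4 of 8, with a sum of between 756 and 1201 CPM and then between 1316 and 1538 CPM. Neuronal markers rose in 3 of 6, with a sum of between 4288 and 4479 CPM and then between 5497 and 5521 CPM, and inhibitory neuron markers in 2 of 5. Their part in the channel values was not tested.

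Among partners, Nedd4l, whose product marks channels for removal from the membrane, rose with KCl (log2 0.73 ± 0.18 at 15 min) and with Bic alone (0.73 ± 0.19 at 15 min), and was the only 1 of 11 called for either. Both values rest on the same basal libraries. Of 11 calcium channel regulators tested, Rem2 rose with KCl (1.97 ± 0.46 at 15 min), and 0 were called with Bic alone by edgeR. With Bic alone 4 of them had an unadjusted p under 0.05, as 2514 of all 12027 genes had.

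Withdrawal of TTX was compared with neurons held in TTX for 48 h. After 180 min, auxiliary subunit genes of calcium channels, the sodium channel beta gene Scn3b and the R-type pore gene fell, while the pore-forming sodium channel genes were not called. Of the 26 members tested, 9 were called and all 9 were lower at 180 min. Of all 12027 genes, 13.2% were called and 6.45% were lower, and at 180 min alone 14% were called and 6.69% were lower. At 15 min 0 members were called by edgeR, where 0% of all genes were, and at 45 min 0, where 0.382% were. The unadjusted p was under 0.05 for 3 members at 15 min and for 11 at 45 min. At 45 min 20 of the 26 members had a log2 fold change above 0 (median 0.229), and at 180 min 20 had one below 0 (median -0.245). The medians over all genes at these times were -0.0035 and 0.0151. The 45 min group had only 2 libraries, replicates 1 and 3, which differed in several genes. Replicate 1 was the higher for genes such as Cacna1a (200 and 127 CPM), and replicate 3 for others such as Cacng3 (117 and 171 CPM).

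Of the 4 calcium channel beta genes, 3 were lower. Cacnb4 (chr2:52428320-52676609) was at 86.5, 51.7, 82.3 and 59.7 CPM in TTX and at 47.1, 32.6 and 30.4 CPM 180 min after withdrawal. These libraries lay below TTX without overlap, as the 15 min and 45 min libraries, between 61.9 and 83.6 CPM, did not (log2 -0.91 ± 0.18, adjusted p over all times = 0.000351). Cacnb1 (chr11:98001508-98023034), a beta subunit that also serves skeletal muscle, was at 122, 112, 130.2 and 139 CPM in TTX and at 53.6, 72.9 and 76.7 CPM at 180 min. Cacnb1 was lower with a wide gap (log2 -0.90 ± 0.13, adjusted p = 1.4e-05).

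Cacnb2 (chr2:14603861-14988811) was at 19.3, 11.03, 30.8 and 14.1 CPM in TTX and at 10.5, 8.04 and 8.35 CPM at 180 min. The groups were separated by a narrow gap (log2 -1.02 ± 0.31, adjusted p = 0.0456). Cacnb2 was not called without replicate 1 of TTX (adjusted p = 0.0585), replicate 3 of TTXw at 15 min (0.0748), replicate 1 at 45 min (0.0549) or replicate 1, 2 or 3 at 180 min (0.0713, 0.211 and 0.126). The call was also lost with DESeq2 (0.0508), thinned counts (0.154) and a fit of the compared groups only (0.0773). Cacnb3, the remaining beta gene, differed by -0.05 ± 0.24 at 180 min (adjusted p over all times = 0.572).

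Among pore-forming calcium channel genes, Cacna1e was called of 8 tested. It was at 59.2, 47.6, 77.3 and 56.8 CPM in TTX, at 102 and 75.5 CPM at 45 min and at 35.3, 32.2 and 28.9 CPM at 180 min. The 180 min libraries lay below TTX without overlap (log2 -0.89 ± 0.20, adjusted p over all times = 6.65e-05), and the value at 45 min was 0.56 ± 0.20. Cacna1c, the L-type pore, differed by -0.53 ± 0.17 at 180 min (adjusted p over all times = 0.00222), less than 1.5-fold.

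The alpha2delta genes Cacna2d1 and Cacna2d3 were lower as well. Cacna2d1 (chr5:15934264-16374511), another gabapentin target, was at 359, 299, 418 and 410.1 CPM in TTX, at 524 and 467 CPM at 45 min and at 247, 201 and 185 CPM at 180 min. Its 45 min libraries lay above all TTX libraries (log2 0.41 ± 0.13, adjusted p at that time = 0.214) and its 180 min libraries below them (log2 -0.82 ± 0.12, adjusted p over all times = 1.76e-07). Cacna2d3 fell by 0.62 ± 0.19 on the log2 scale at 180 min (adjusted p = 0.0029), but by less than 1.5-fold without replicate 4 of TTX (0.54) or without replicate 1 of TTXw at 180 min (0.53). Its value was -0.55 with the replicate number as a block, -0.52 with thinned counts (adjusted p = 0.0514) and -0.31 with counts summed over transcripts. Cacna2d2 had a value of -0.43 ± 0.27 (adjusted p = 0.528).

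The sodium channel beta subunit gene Scn3b was at 96.4, 83.0, 98.7 and 82.8 CPM in TTX and at 53.0, 51.6 and 63.0 CPM at 180 min. The groups did not overlap, and Scn3b was lower (log2 -0.69 ± 0.14, adjusted p = 2.31e-05). Scn2b differed by -0.21 ± 0.22 (adjusted p = 0.385). Cacng3 was the only gamma gene called, with a value of -0.64 ± 0.16 (adjusted p = 0.00168). Without replicate 3 of TTX or replicate 2 of TTXw at 180 min it was -0.58, below 1.5-fold.

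None of the 4 tested pore-forming sodium channel genes was called after withdrawal by edgeR or by DESeq2, with edgeR's adjusted p between 0.111 and 0.197 over all times. The unadjusted p over all times was under 0.05 for 3 of them, as for 3785 of all 12027 genes. At 45 min alone it was so for 3 of them and at 180 min alone for 0, and counts over all genes at single times are not given here. Their largest log2 fold changes, each at its own time, ran from -0.292 to 0.81 (median 0.604). At 45 min Scn2a was at 485 and 254 CPM and Scn3a at 719 and 499 CPM. In all 4 genes replicate 1 of 45 min lay above every TTX library and replicate 3 did not. Scn2a was at 267, 168, 273 and 182 CPM in TTX and at 306, 111 and 324 CPM at 180 min (log2 0.14 ± 0.23). Scn3a was at 523, 354, 537 and 350.4 CPM in TTX and at 510.3, 183 and 460.1 CPM at 180 min (log2 -0.20 ± 0.20). For both, replicate 2 at 180 min was below every TTX library and the other replicates were not.

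Scn8a was at 115, 93.5, 130.2 and 110.3 CPM in TTX and at 122, 106 and 121 CPM at 180 min, with overlap (log2 0.05 ± 0.14). Scn1a was at 19.95, 7.55, 16.5 and 14.8 CPM in TTX and at 12.4, 8.04 and 25.1 CPM at 180 min, with overlap (log2 -0.02 ± 0.31). No test was made of whether beta and alpha subunit genes differ in response.

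**Figure D3:**
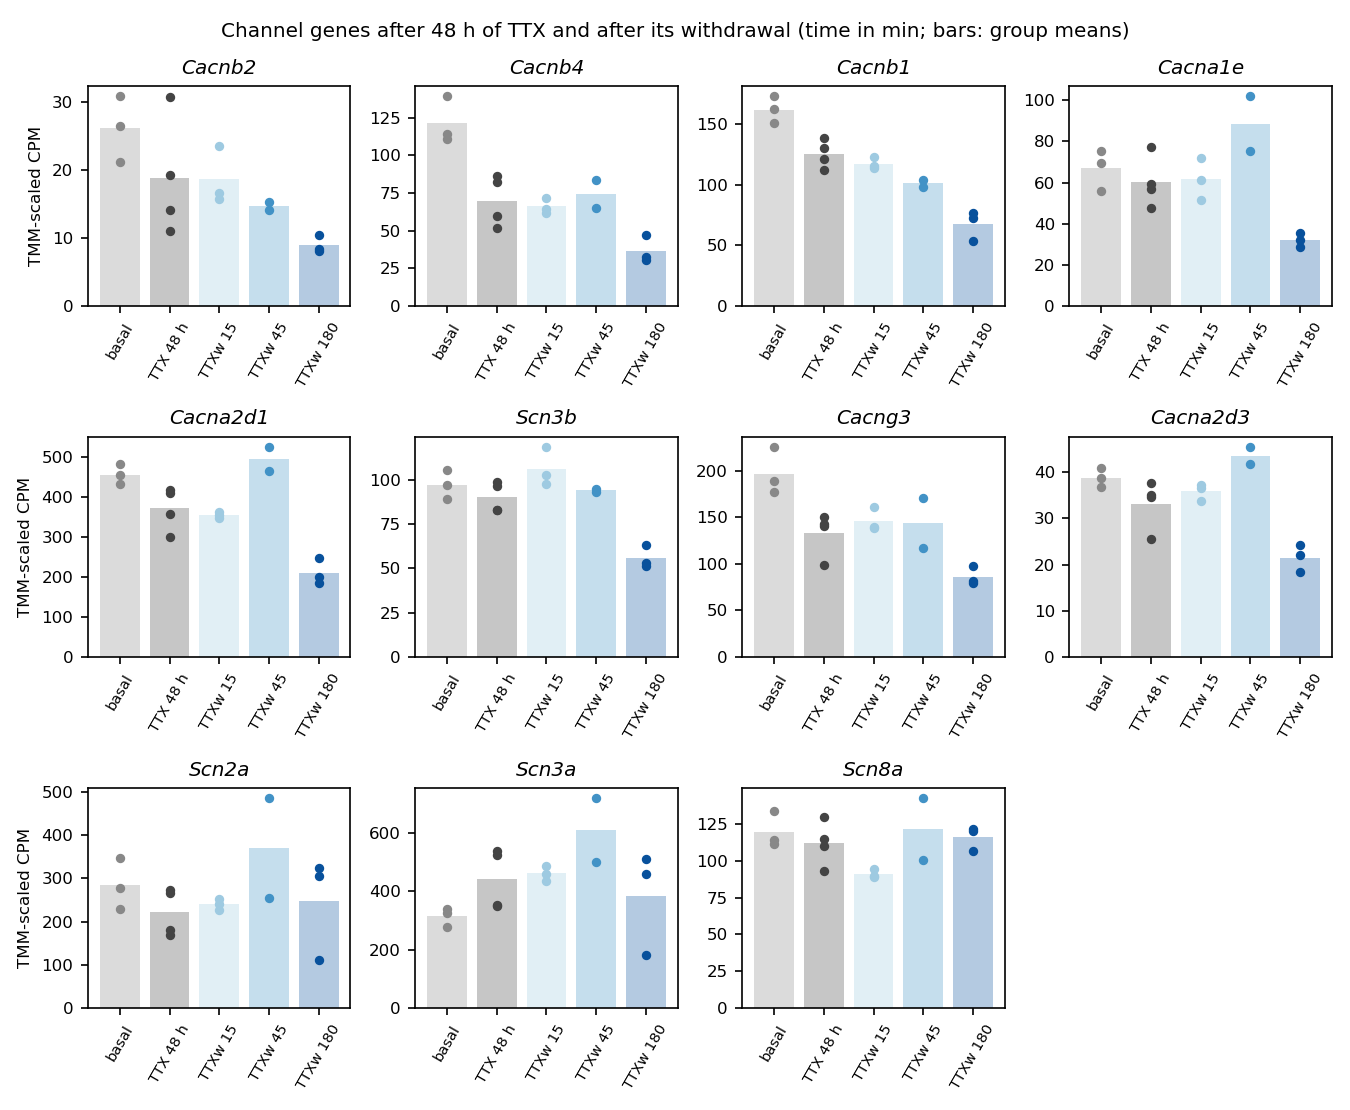
Level in CPM of 8 called members and of Scn2a, Scn3a and Scn8a in every library, in basal neurons, after 48 h of TTX and 15, 45 and 180 min after withdrawal, with the group mean as a bar. The 180 min libraries of these called members lie below all TTX libraries, while those of Scn2a and Scn3a spread around them, with 1 low library each.

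**Figure D4:**
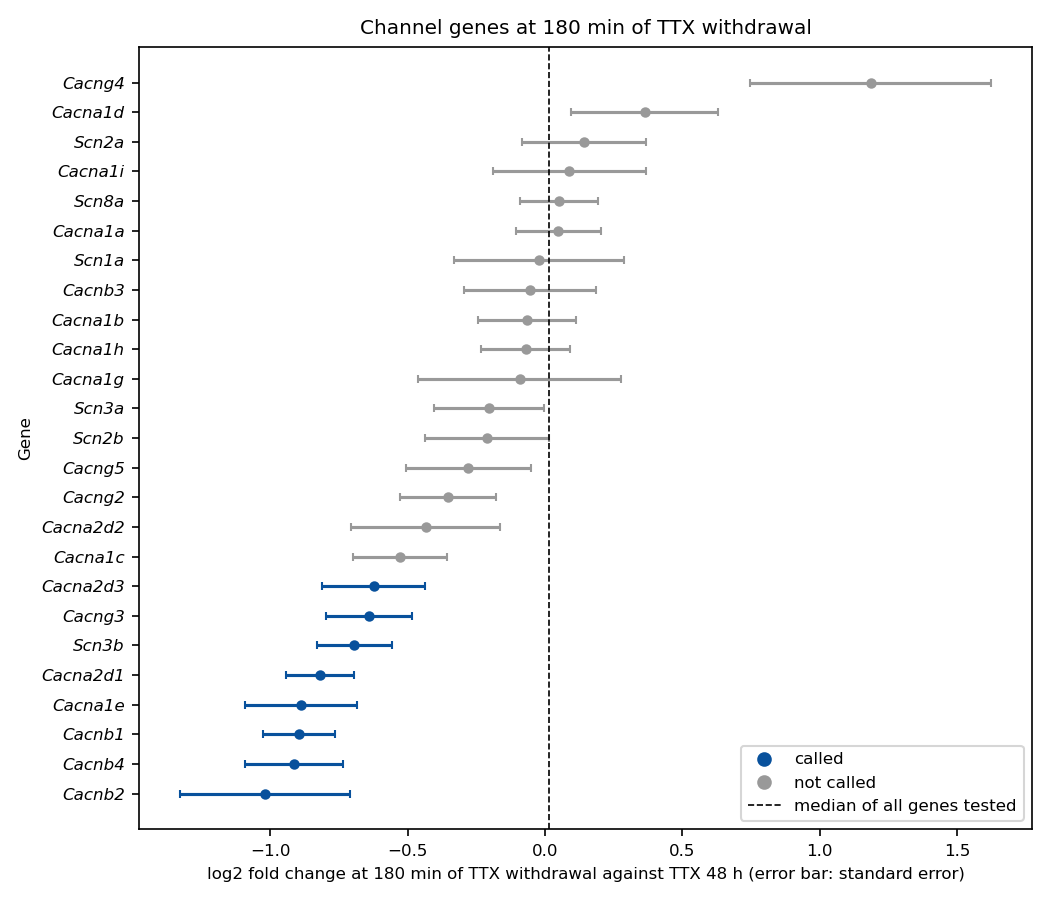
Log2 fold change of 25 tested members 180 min after TTX withdrawal against TTX, with standard errors as bars and the median of all genes, 0.0151, as a dashed line. Called genes lie between -1.02 for Cacnb2 and -0.62 for Cacna2d3, and the 4 pore-forming sodium channel genes lie near 0.

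Of the 11 sodium channel partners, 2 fell after withdrawal and 0 rose. Fgf12, an intracellular sodium channel partner, was at -0.82 ± 0.15 at 180 min (adjusted p over all times = 8.76e-05) and Fgf13 at -0.70 ± 0.17 (adjusted p = 0.00717). Of 11 calcium channel regulators, 1 was called. Gem, a small GTPase that binds calcium channel beta subunits and inhibits the channel, rose by 2.70 ± 0.35 at 180 min (adjusted p = 3.9e-08).

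Cell type markers shifted between the same groups. Neuronal markers summed to between 3427 and 3938 CPM in TTX and between 2077 and 2648 CPM 180 min after withdrawal, where 3 of 6 fell. Inhibitory neuron markers went from between 4237 and 5851 CPM to between 1904 and 2619 CPM, with 4 of 5 tested lower and 1 higher. Excitatory neuron markers went from between 451 and 656 CPM to between 329.7 and 379.9 CPM, with 2 of 5 lower. Astrocyte markers went from between 3808 and 4439 CPM to between 5934 and 7655 CPM, with 4 of 7 higher, and oligodendrocyte lineage markers from between 2103 and 2173 CPM to between 3002 and 3716 CPM, with 4 of 8 higher. The part of these shifts in the lower channel genes was not tested.

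Silencing itself was read from TTX against basal neurons of the same experiment, and the TTX libraries are also the controls of the withdrawal comparison. Of the 26 members, 3 were lower with TTX and 0 higher, where 21.6% of all genes were called and 10.8% were lower. Cacng4 was at 9.17, 13.0 and 9.86 CPM in basal libraries and at 2.66, 4.65, 2.86 and 1.81 CPM with TTX. It fell 3.64-fold with no overlap (log2 -1.86 ± 0.38, adjusted p = 0.000155), on 4 to 8 counts in each TTX library. Every TTX library lay under the 5 CPM of the filter, so Cacng4 passed it through other groups, basal among them. Cacnb4 went from 114, 139 and 111 CPM to the TTX values given above, also without overlap (log2 -0.81 ± 0.15, adjusted p = 3.21e-05).

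Cacng2 (chr15:77991919-78120220) was at 385, 421 and 313 CPM in basal libraries and at 273, 254, 265 and 153 CPM with TTX. It fell without overlap (log2 -0.67 ± 0.16, adjusted p = 0.00145). Replicate 4 of TTX was the lowest, and without it the value of Cacng2 was -0.50, below 1.5-fold, as it was without replicate 2 of basal (-0.58). Cacng3 (-0.56 ± 0.14, adjusted p = 0.00202) and Cacna1h (0.56 ± 0.16, adjusted p = 0.00525) passed the p threshold but not 1.5-fold.

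No sodium channel gene of the 7 tested was called with TTX by edgeR or by DESeq2. An unadjusted p under 0.05 was found for 1 of them and for 4804 of all 12027 genes. Scn3a, at 339, 326 and 276 CPM in basal libraries, was lower there than in all 4 TTX libraries, and its value was 0.49 ± 0.20 (adjusted p = 0.0605). Without replicate 4 of TTX the value of Scn3a was 0.59 (adjusted p = 0.0331). Scn2a, at 347, 277 and 229.7 CPM in basal libraries, had a value of -0.37 ± 0.22 (adjusted p = 0.213). Scn8a, at 112, 114 and 134 CPM, had -0.10 ± 0.14, and Scn1a, at 16.6, 17.9 and 18.6 CPM, had -0.28 ± 0.27.

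Cell type markers moved with TTX. Of 5 excitatory neuron markers 2 fell, and their sum went from between 888 and 1023 CPM in basal libraries to between 451 and 656 CPM. Of 6 neuronal markers 2 fell and 0 rose, and their sum went from between 4288 and 4479 CPM to between 3427 and 3938 CPM. Of 5 inhibitory neuron markers tested 0 were called, with a median log2 fold change of -0.28. The sum of the inhibitory list was between 3914 and 4652 CPM in basal libraries and between 4237 and 5851 CPM with TTX. Astrocyte markers rose in 7 of 7, from a sum of between 1604 and 2042 CPM to one of between 3808 and 4439 CPM, and oligodendrocyte lineage markers in 5 of 8, from between 756 and 1201 CPM to between 2103 and 2173 CPM. Of 2 microglial markers tested 1 fell. Their part in the channel values was not tested.

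Among partners, Fgf12 fell with TTX by 0.89 ± 0.13 on the log2 scale, as 1 of 11 sodium channel partners. Of 11 calcium channel regulators 3 fell, Stac by 2.97 ± 0.62, Rem2 by 1.60 ± 0.63 and Stac2 by 1.07 ± 0.21. All 5 activity genes fell with TTX and all 5 rose after its withdrawal.

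**Figure D5:**
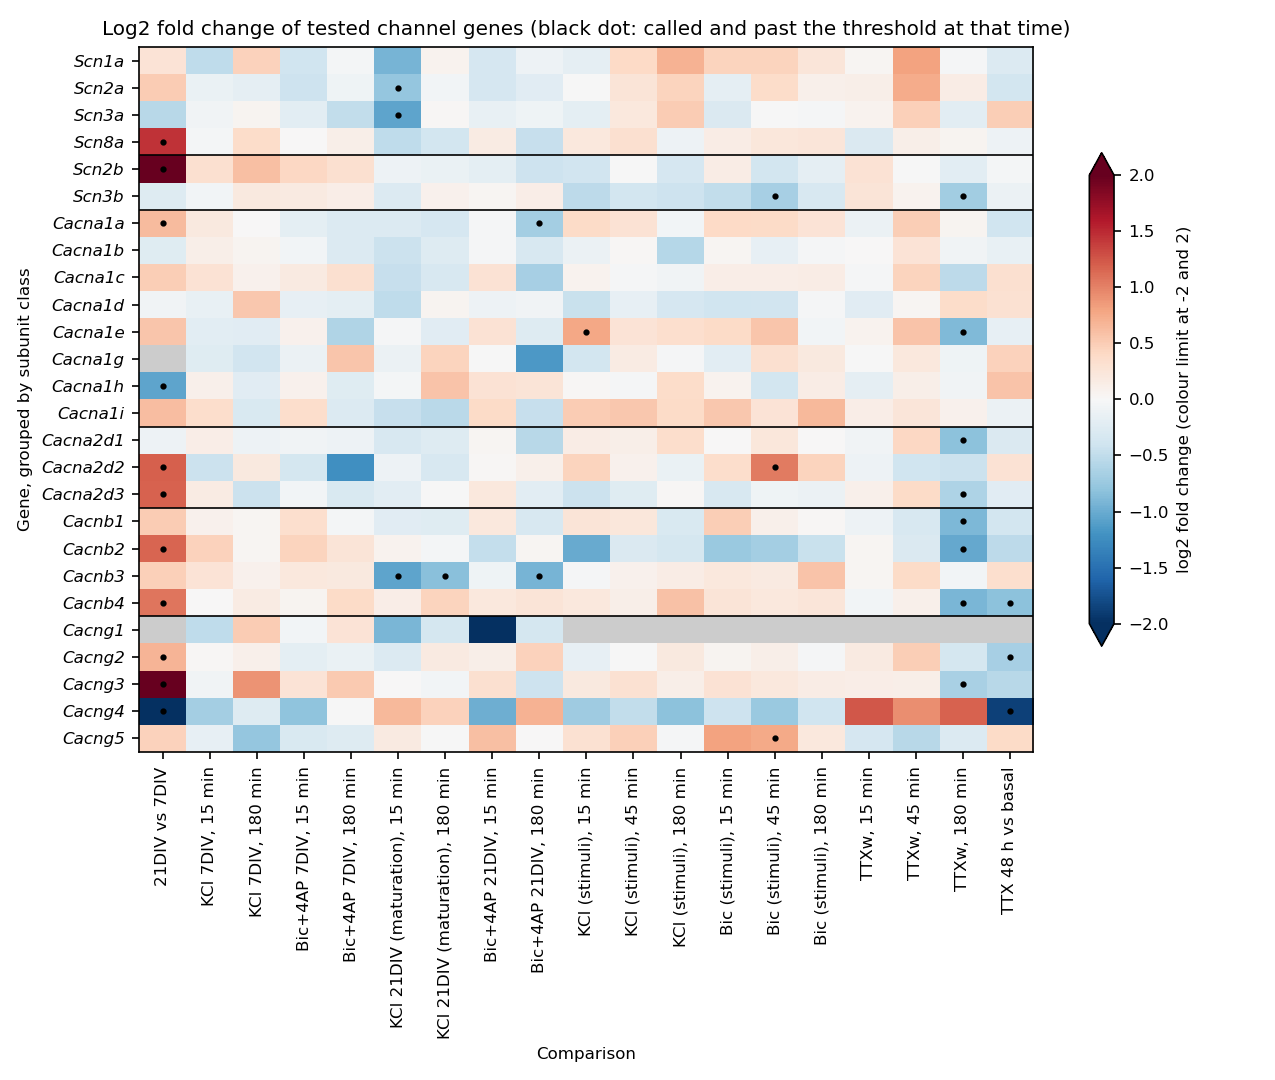
Log2 fold change of 26 members that passed the filter, in 19 contrasts of stage, stimulus, time and TTX, with blue below 0 and red above, and a black dot where a called gene passed the threshold at that time. Dots gather in the contrast of stages and at 180 min of TTX withdrawal, and there are none at 7DIV.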

How the data were processed

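The authors made CEL-Seq2 libraries of transcript 3′ ends, used STAR for alignment to mm10 and the End Sequence Analysis Toolkit for counting, and deposited raw counts of RefSeq transcripts. Whether molecular identifiers were collapsed is not given in the sources used here. Conditions and replicate numbers came from the sample titles and descriptions.

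Transcripts were matched to symbols of RefSeq GRCm38.p6, 80.8% of 97700 in the maturation and 80.9% of 96722 in the stimuli experiment. Those not matched, with 18.5% and 19.2% of all counts, were not used. Isoforms with the same 3′ end repeat counts, so the transcript with the most counts represented its gene. Locations are from the same annotation.

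Genes that exceeded 5 CPM in 2 samples or more were normalized by TMM and tested with edgeR 4.0.16 (R 4.3.3) by its quasi-likelihood test with Benjamini-Hochberg adjustment over all genes. The basal stages were fitted on their 6 samples, and other tests came from 1 fit per experiment. Called genes had an adjusted p under 0.05 over all times and a change of at least 1.5-fold at 1 time or more. Interactions needed only the adjusted p. Standard errors were derived from the F statistic. Known changes, the same at every time, were simulated for the basal stages, Bic with 4-aminopyridine at 21DIV and TTX withdrawal. In these the test recovered between 55.0% and 76.0% of 2-fold changes and between 95.0% and 99.0% of 4-fold changes, with 0 in the wrong direction. Changes at 1 time only, interactions and the other comparisons were not simulated, so the rates do not cover them. Replicates differed by more than counting error, since the chi-square divided by its degrees of freedom was 2.08 to 18.0 over 48 pairs.

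The members, marker lists and partner lists were chosen with earlier results of these data known. Called members are named, except that some genes of the list are not reported here, although counts over all members include them. The named genes with the largest changes in a comparison, up to 6, and Scn1a, Scn2a, Scn3a and Scn8a in the basal and TTX comparisons, are given with the value in every sample. Alternatives were DESeq2 1.42.0, RLE size factors, no filter, counts thinned to the smallest library, counts summed over transcripts, a fit on the compared groups only, a fit on all samples for the basal comparison, a block for the replicate number, and omission of 1 replicate at a time. Figures were drawn with matplotlib 3.10.9 in Python 3.11.15.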

Additional observations from a re-analysis of the deposited data

Results flagged for a closer look

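Cacng2 in neurons held in TTX was at 153 CPM in replicate 4, against 254, 265 and 273 CPM in the other 3 libraries, and the gap took 0.842 of the whole range. Of the 26 members examined in this group of 4 samples, 1 stood apart in this way, and chance flags about 1 in 20 groups. Cacng2 was lower with TTX than in basal neurons with that library (log2 -0.67) and differed by less than 1.5-fold without it (log2 -0.50).

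Cacnb3 was called for a different response at the 2 stages, by the test of the difference itself. The call was lost in 11 of 23 alternatives with Bic and 4-aminopyridine (adjusted p up to 0.239) and in 0 of 25 with KCl. With KCl at 15 min the log2 fold change at 21DIV minus that at 7DIV was -1.34, and with Bic and 4-aminopyridine at 180 min it was -1.12. Both differences share the basal libraries of each stage. In the stimuli experiment, at 21DIV, Cacnb3 after KCl or Bic alone was not called, with adjusted p of 0.968 and 0.425. The difference between the experiments was not tested.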

How the results depend on the processing

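Of 650 alternative values for 42 named results, 564 kept their direction and their side of the threshold, 79 lost a call, 5 gained one and 2 changed sign. The 2 were Scn1a between stages without replicate 2 of 21DIV (-0.025, where leaving out each replicate gave up to 0.505) and Scn8a with TTX when the replicate number was a block (0.025), neither called. Leaving out each replicate in turn gave between 9 and 15 called members for the basal stages, 0 to 1 for KCl at 7DIV, 0 for Bic with 4-aminopyridine at 7DIV, 1 to 4 for KCl and for Bic with 4-aminopyridine at 21DIV, 1 to 3 for the KCl interaction, 0 to 1 for the Bic interaction, 0 to 1 for KCl in the stimuli experiment, 0 to 3 for Bic alone, 7 to 12 for TTX withdrawal and 3 to 5 for TTX. With Bic and 4-aminopyridine at 21DIV, 4 were called without replicate 1 of basal and 1 without replicate 3 of 180 min. The KCl interaction called 3 without replicate 1 of 21DIV basal and 2 without replicate 3 of 21DIV KCl at 15 min. TTX called 5 without replicate 2 or without replicate 3 of TTX. Shares of all genes called without a replicate are not given here, so these counts describe the members only.

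With no filter, 2 members were called for KCl at 7DIV, 5 for the KCl interaction and 2 for the Bic interaction. DESeq2 called 2 for the KCl interaction and 8 for TTX withdrawal, where Cacnb2 had an adjusted p of 0.0508. A fit on the compared groups only called 1 for KCl at 21DIV in the maturation experiment and 3 for KCl in the stimuli experiment. Thinned counts called 0 for the Bic interaction, 0 for KCl in the stimuli experiment, 1 for Bic alone and 5 for TTX. Counts summed over transcripts called 0 for KCl in the stimuli experiment and 1 for Bic alone. The causes were not tested. The share of all genes called under each alternative is not given here, so these counts describe the members only.

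Samples of the same number did not deviate together, with correlations between -0.256 and 0.125 over 109 pairs of the maturation experiment and between -0.0947 and 0.107 over 96 pairs of the stimuli experiment, so the numbers were not taken to pair the samples. With the replicate number as a block, 14 members were called for the basal stages, 0 for each stimulus at 7DIV, 3 for KCl and 3 for Bic with 4-aminopyridine at 21DIV, 1 for the KCl interaction, 0 for the Bic interaction, 0 for KCl in the stimuli experiment, 2 for Bic alone, 8 for TTX withdrawal and 3 for TTX. The share of all genes called with this block is not given here either, so these counts describe the members only. Groups of 2 and 3 limit what could be called, and changes of low genes such as Cacng4 and Cacna2d2 rest on few counts.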
